A study of Homo sapiens with 2 samples.

Results

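The 10 genes described here encode XBP1, a transcription factor of the unfolded protein response, and 9 proteins that fold, check or dispose of proteins in the endoplasmic reticulum (ER): HSPA5, HSP90B1, DNAJB9, DNAJC3, SDF2L1, HERPUD1, PDIA4, CRELD2 and MANF. They were taken by gene name from a deposited table of 56558 gene symbols, and each of the 10 stood on 1 row. Both libraries were made from Huh7 cells, a long-established line from a human liver carcinoma, at passages 5 to 8. One is labelled as NEIL3 knockdown (NEIL3 KD). The other is its control, labelled shGFP, a name used for hairpin RNAs aimed at the fluorescent reporter GFP. NEIL3 is a DNA glycosylase that starts base excision repair. The sources used here do not say how NEIL3 was knocked down, or whether the cells were a pool or a clone. Total RNA was sequenced from 1 library per group, so the values have no error between replicates and no test of the condition was possible. Each difference is one between 2 libraries. In RNA from bulk cells, fewer cells that use a gene and less of its RNA per cell cannot be told apart.

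When unfolded proteins collect in the ER, 3 membrane sensors respond: IRE1 (gene ERN1), PERK (gene EIF2AK3) and ATF6. IRE1 cuts a short segment out of XBP1 mRNA in the cytosol, which changes the reading frame and gives the active factor. Spliced XBP1 and cleaved ATF6 bind ER stress elements in promoters and raise the genes of chaperones, disulfide isomerases and the ER-associated degradation (ERAD) machinery. Liver cells secrete large amounts of plasma protein and rely on these genes.

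All 10 genes had a higher level in the NEIL3 KD library than in the shGFP library. Levels are in FPKM, fragment numbers scaled by transcript length and library size, as the authors deposited them. The plain ratio of NEIL3 KD to shGFP ran from 1.08 to 1.80, with a median of 1.27. A gene was called when its libraries were 1.5-fold or more apart on the log2(FPKM + 1) scale, where the pseudocount of 1 FPKM shrinks the ratio of genes of low level. A call is a size, not a test. By this rule XBP1 and DNAJB9 were called higher, 0 of the 10 were called lower, and 8 had no call. A symbol counted as measured if either library reached 1 FPKM. Of all 14209 measured symbols, 4.55% were called higher and 4.48% were called lower. Among the 7461 with mean FPKM of 10 or more, a range that holds all 10 genes, 3.28% were called higher and 2.02% lower. A log2 ratio above 0 was found in 53% of measured symbols and in 57.2% of those with mean FPKM of 10 or more, so the shared direction of the 10 is to be read against those shares. The median log2 ratio of the 10 was 0.33, against 0.02 over all genes measured. Of all genes, 13.4% stood at or above the median of the 10, as did 11.6% of those with mean FPKM of 10 or more. The 10 were chosen with earlier results of these data known, so these contrasts describe the list and test nothing.

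**Figure D1:**
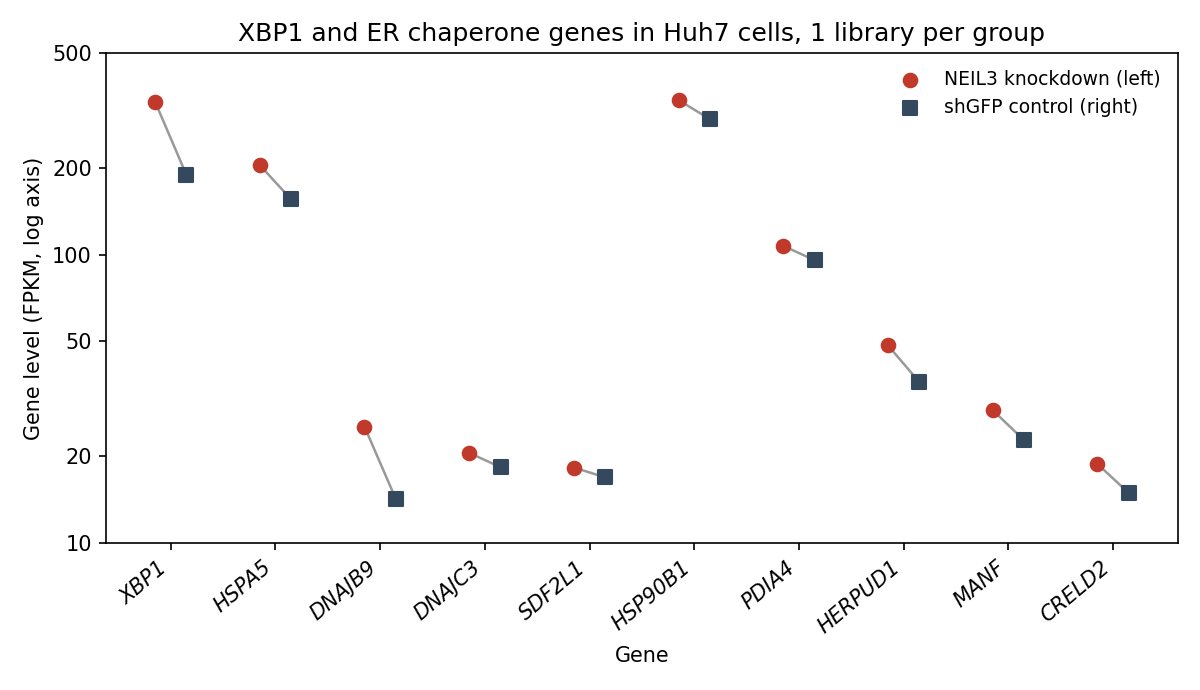
Level in FPKM (log axis) of XBP1 and the 9 ER chaperone genes in the NEIL3 KD library (circles, left of each pair) and the shGFP library (squares, right of each pair); each point is 1 library. Every circle stands above its square, with the steepest lines at XBP1 and DNAJB9.

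Short sequences that carry the ER stress response were read from reference files, to show what the values can and cannot tell. The first is the segment of XBP1 mRNA that IRE1 removes, shown because its presence separates unspliced from spliced XBP1. It is 26 bases long and lies in an exon on the minus strand (GRCh38, GENCODE release 29). Repeated bases at its ends allow 7 placements that leave the same spliced sequence, and the annotation uses 2 of them. The capitals mark the placement between G and CAG at both ends, where IRE1 is known to cut, at chr22:28796127-28796152, which is not one of the annotated 2. It is printed 5′ to 3′ with 15 bases on each side.
XBP1 segment: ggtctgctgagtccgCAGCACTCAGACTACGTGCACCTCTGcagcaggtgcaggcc
Of the 7 XBP1 transcripts in that annotation, 4 hold the segment, 2 have it removed and 1 does not reach it. The deposited table has a single FPKM value per library for the whole gene. It sums both forms, so the share of spliced XBP1 was not measured here.

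The second set is the ER stress elements of the promoters, shown because they are the known sites through which XBP1 and ATF6 raise this gene group. RefSeq promoter windows of GRCh38.p14, from 250 bases before to 50 bases after each annotated start, were matched for all 10 genes (12 windows). They were searched on both strands for the ER stress element ERSE (CCAAT and CCACG with 9 bases between), for ERSE-II (ATTGG and CCACG with 1 base between) and for the core of the unfolded protein response element (TGACGTGG). No match overlapped another in these windows. ERSE was found in 4 of the 10 genes, against 0.0916% of all 27305 genes in the promoter table. ERSE-II was found in 2 of the 10, against 0.0696% of genes, and TGACGTGG in 0 of the 10, against 0.927% of genes. The shares over all genes include the 10. The motifs were chosen as known elements of this gene group, so the contrast is not a result of these data. Each match is given with 30 bases on each side, in the gene's own 5′ to 3′ direction, and the capitals mark the motif.
XBP1 ERSE, chr22:28800573-28800651, minus strand: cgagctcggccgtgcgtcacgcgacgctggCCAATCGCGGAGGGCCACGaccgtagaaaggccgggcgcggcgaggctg
HSPA5 ERSE, chr9:125241361-125241439, minus strand: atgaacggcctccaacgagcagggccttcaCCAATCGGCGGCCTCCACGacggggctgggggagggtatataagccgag
HSP90B1 ERSE, chr12:103930186-103930264, plus strand: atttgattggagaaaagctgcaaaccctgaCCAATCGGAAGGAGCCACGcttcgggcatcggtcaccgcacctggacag
HSP90B1 ERSE in reverse, chr12:103930291-103930369, plus strand: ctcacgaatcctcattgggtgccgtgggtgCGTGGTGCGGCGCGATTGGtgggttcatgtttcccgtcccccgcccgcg
CRELD2 ERSE in reverse, chr22:49918524-49918602, plus strand: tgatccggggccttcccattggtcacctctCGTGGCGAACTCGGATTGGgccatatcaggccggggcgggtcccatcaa
HERPUD1 ERSE-II, chr16:56931995-56932065, plus strand: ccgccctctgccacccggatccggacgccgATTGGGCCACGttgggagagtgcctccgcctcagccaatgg
SDF2L1 ERSE-II in reverse, chr22:21642084-21642154, plus strand: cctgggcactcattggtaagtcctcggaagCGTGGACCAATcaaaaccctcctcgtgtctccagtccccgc
The first base of the element lay 52 bases before the RefSeq start in XBP1 and 66 bases before it in HSPA5. HSP90B1 held a pair of them, 194 and 89 bases before its RefSeq start. The deposited table spans all annotated transcripts of a gene, so its outer starts differ from these. The RefSeq start lay 303 bases inside the deposited HSP90B1 gene and 467 bases inside the deposited CRELD2 gene, so the elements of both fall within those deposited spans. The elements of the other 4 genes lie outside theirs. The windows of DNAJB9, DNAJC3, PDIA4 and MANF held none of these letters, which says only that exact matches are not in those windows.

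**Figure D2:**
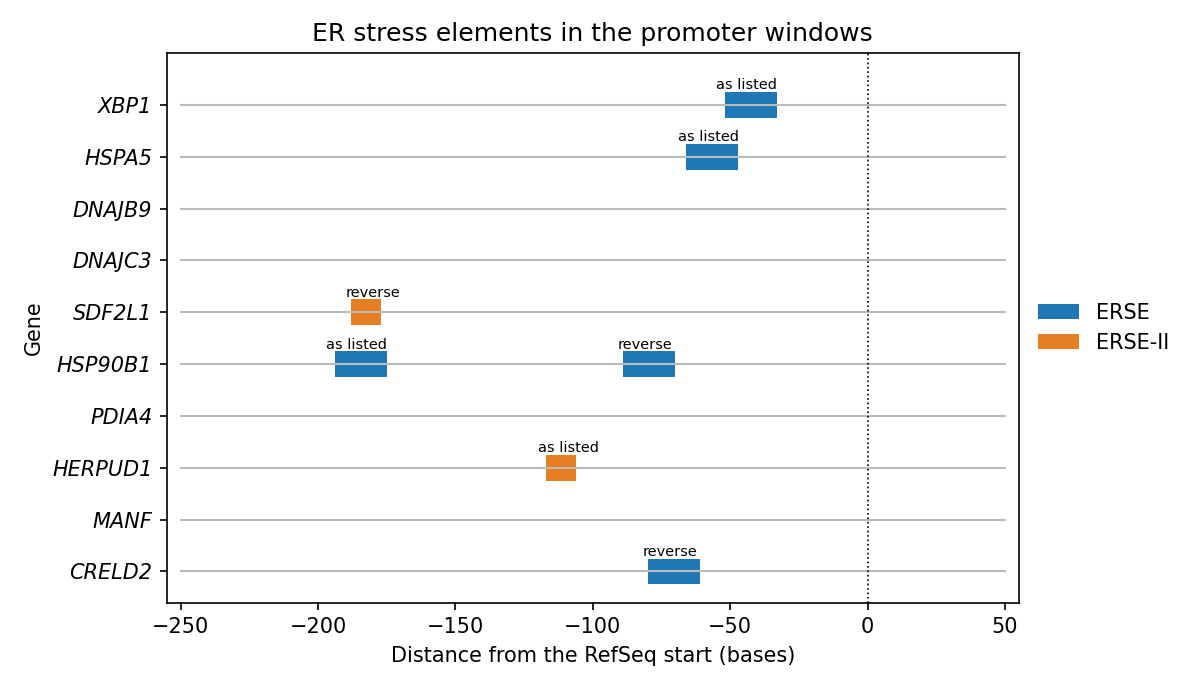
Positions of ERSE (blue) and ERSE-II (orange) matches in the RefSeq promoter windows of the 10 genes, in bases from the RefSeq start (dotted line); "reverse" marks a match on the other strand. Matches stand in XBP1, HSPA5, SDF2L1, HSP90B1, HERPUD1 and CRELD2, all before the RefSeq start.

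XBP1 (ENSG00000100219, chromosome 22, 28794555 to 28800597, minus strand, GRCh38) had 339 FPKM in the NEIL3 KD library and 189 FPKM in the shGFP library. Its ratio of 1.80 was the highest of the 10, with a log2 ratio of 0.84. That placed it at rank 281 of 14209 genes ordered from the highest log2 ratio down, and at rank 94 among the 7461 of mean FPKM 10 or more. Of the 296 FPKM by which the NEIL3 KD library exceeded the shGFP library over the 10 genes together, XBP1 made up 50.7%. In FPKM relative to HSPA5, XBP1 stood 1.66 times as high in the NEIL3 KD library and 1.21 times as high in the shGFP library. In the authors' deposited table, whose test compares these 2 libraries and not the conditions, XBP1 had a p-value of 0.0514 and a q-value of 0.770. The deposited q-values of the other 9 genes were above 0.99, and 0 of the 10 were under a q of 0.05, against 13 genes in the whole table.

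The central chaperone of the group is HSPA5 (BiP), the HSP70 of the ER lumen, which binds unfolded chains and holds the stress sensors inactive. HSPA5 (ENSG00000044574, chromosome 9, 125234853 to 125241330) had 204 FPKM in the NEIL3 KD library and 155 FPKM in the shGFP library, a ratio of 1.31 and a log2 ratio of 0.39. Of all genes measured, 9.90% had a higher log2 ratio. Its partners lay on both sides of it. DNAJB9 (ERdj4), a J protein that drives HSPA5 onto its clients and onto IRE1, had 25.3 FPKM in the NEIL3 KD library and 14.2 FPKM in the shGFP library. Its ratio was 1.78 and its log2 ratio 0.79, at rank 310 of 14209. DNAJB9 (ENSG00000128590, chromosome 7, 108569568 to 108574850) was the lowest of the 10 in the shGFP library, and stood above DNAJC3, CRELD2 and SDF2L1 in the NEIL3 KD library.

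The J protein DNAJC3 (p58IPK; chromosome 13, 95677139 to 95794989) differed little, with 20.5 FPKM in the NEIL3 KD library and 18.3 FPKM in the shGFP library, a ratio of 1.12. SDF2L1, which works in a complex with HSPA5 and the J protein DNAJB11, had 18.3 FPKM in the NEIL3 KD library and 16.9 FPKM in the shGFP library. Its ratio of 1.08 was the lowest of the 10, and 36.9% of all genes had a higher log2 ratio. The HSPA5 partners in the list thus spanned nearly the whole range of ratios seen in the 10 genes.

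HSP90B1 (GRP94; ENSG00000166598, chromosome 12, 103930107 to 103953645), the HSP90 of the ER and a chaperone of integrins and Toll-like receptors, was the most abundant of the 10 in both libraries. Its level was 343 FPKM in the NEIL3 KD library and 295 FPKM in the shGFP library, a ratio of 1.16. PDIA4 (ERp72), a protein disulfide isomerase (chromosome 7, 149003062 to 149028641), had 107 FPKM in the NEIL3 KD library and 95.6 FPKM in the shGFP library, a ratio of 1.12. Both lay inside the bulk of the distribution, since 22.3% and 29.3% of all genes had higher log2 ratios than HSP90B1 and PDIA4.

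HERPUD1, a membrane protein that serves the HRD1 ubiquitin ligase in ERAD (chromosome 16, 56932048 to 56944863), had 48.4 FPKM in the NEIL3 KD library and 36.1 FPKM in the shGFP library. Its ratio of 1.34 followed those of XBP1 and DNAJB9. MANF, a small ER protein that binds HSPA5 and is secreted when the ER is stressed (chromosome 3, 51385047 to 51389397), had 28.9 FPKM in the NEIL3 KD library and 22.7 FPKM in the shGFP library, a ratio of 1.27. CRELD2, another stress-induced protein of the ER (chromosome 22, 49918167 to 49927540), had 18.8 FPKM in the NEIL3 KD library and 14.9 FPKM in the shGFP library, a ratio of 1.26. Without XBP1 and DNAJB9, which earlier results of these data had already shown to be higher, the median log2 ratio of the other 8 was 0.27.

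**Figure D3:**
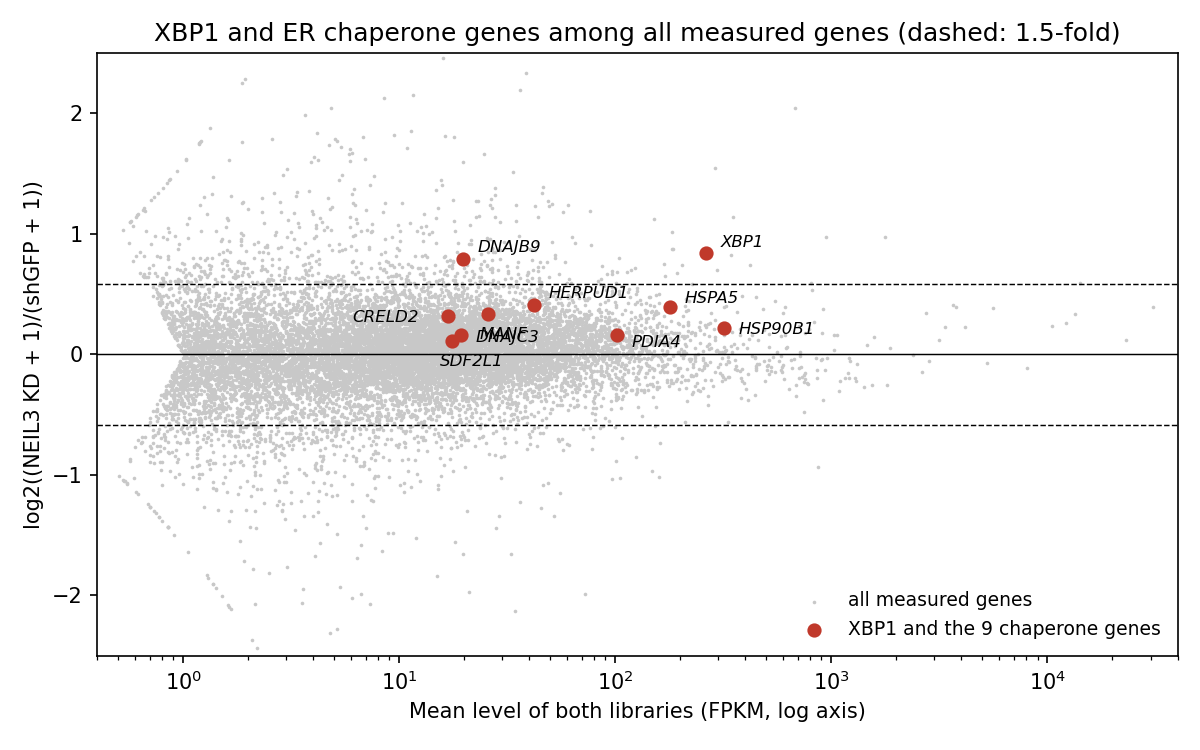
Log2 ratio of NEIL3 KD to shGFP (pseudocount 1 FPKM) against the mean level of both libraries (FPKM, log axis) for 14173 measured genes (grey; 36 lie beyond ±2.5) with the 10 genes in red; dashed lines mark 1.5-fold. XBP1 and DNAJB9 lie above the upper dashed line and the other 8 between it and 0.

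Some of the values touch neighbouring genes. DNAJB9 overlaps THAP5, which had 17.0 FPKM in the NEIL3 KD library and 12.8 FPKM in the shGFP library, and PNPLA8, which had 14.4 and 14.2 FPKM in the NEIL3 KD and shGFP libraries, both on the other strand. CRELD2 overlaps ALG12 on the other strand, at 17.8 FPKM in the NEIL3 KD library and 19.6 FPKM in the shGFP library. HSP90B1 overlaps C12orf73 in the same way, at 14.8 FPKM in the NEIL3 KD library and 16.9 FPKM in the shGFP library. The library kit keeps strand, but the sources used here do not say whether strand was used in quantification, so DNAJB9 and CRELD2, which are about as abundant as these partners, are less certain than the rest. The 3 pseudogenes named after XBP1 and HSP90B1 stood at 0.340 FPKM or less.

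The library labelled as knockdown had 2.84 FPKM of NEIL3, against 5.34 FPKM in the shGFP library, a ratio of 0.532. The authors' comparison of the libraries did not mark NEIL3 as significant. All 10 hepatocyte markers examined were measured, with a summed level of 2424 FPKM in the NEIL3 KD library and 2147 FPKM in the shGFP library. Their median log2 ratio was 0.34, against 0.33 for the 10 ER genes. Above 0 were 9 of the 10 markers (90%), against 53% of all measured genes. AFP, the fetal plasma protein made by many liver carcinomas, had 59.8 FPKM in the NEIL3 KD library and 12.3 FPKM in the shGFP library, and the protease inhibitor SERPINA1 367 FPKM in the NEIL3 KD library and 226 FPKM in the shGFP library. The markers' part in the higher levels of the ER genes was not tested. Of 6 fibroblast markers 5 were measured, and the 6 summed to 36.2 FPKM in the NEIL3 KD library and 36.3 FPKM in the shGFP library. Of 6 leukocyte markers CD68 alone was measured, and the 6 summed to 16.3 FPKM in the NEIL3 KD library and 20.7 FPKM in the shGFP library. Of 5 endothelial markers PECAM1 alone was measured, and the 5 summed to 4.52 FPKM in the NEIL3 KD library and 3.68 FPKM in the shGFP library. PTPRC, which marks leukocytes, had 0.224 FPKM in the NEIL3 KD library and 0.149 FPKM in the shGFP library. Among genes of low value the commonest ratio of NEIL3 KD to shGFP was 1.29, as single fragments would give if the NEIL3 KD library held 77.8% as many fragments. The absolute depth is unknown, so no counting interval is given. Of the summed FPKM, 26.3% in the NEIL3 KD library and 23.1% in the shGFP library came from the mitochondrial genome.

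The sensors upstream of these genes were examined next, with their proteases, the XBP1 ligase RTCB and related factors. Of 12 genes listed, 10 were measured, of which 1 was called higher, 0 were called lower and 8 were above 0, with a median log2 ratio of 0.28. Over all measured genes, 4.55% were called higher, 4.48% were called lower and 53% were above 0. The gene called in the list was ERN1, which encodes IRE1, at 5.96 FPKM in the NEIL3 KD library and 3.57 FPKM in the shGFP library, a ratio of 1.67. BHLHA15 (MIST1), a factor of secretory cells and known XBP1 target, had 3.08 FPKM in the NEIL3 KD library and 1.81 FPKM in the shGFP library. The other sensors, named after their values were seen, were closer. EIF2AK3 had 13.3 FPKM in the NEIL3 KD library and 10.8 FPKM in the shGFP library, and ATF6 10.9 and 10.5 FPKM in the NEIL3 KD and shGFP libraries.

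The 7 lists of other ER genes covered HSP70 partners, disulfide isomerases and oxidases, lectin chaperones, ERAD, translocation with signal peptide cleavage, oligosaccharyltransferase, and export by COPII with KDEL receptors. Of their 107 genes, 104 were measured. Of these 8 (7.69%) were called higher and 0 lower. Among all measured genes, which passed the same minimum, 4.55% were called higher and 4.48% lower. Among those with mean FPKM of 10 or more, a range that some of the 104 fall below, these shares were 3.28% and 2.02%. Above 0 were 84 of the 104 (80.8%), against 53% of all measured genes. The share above 0 was 57.2% with mean FPKM of 10 or more and 61.7% for nuclear genes with 50 to 200. The median log2 ratio of the 104 was 0.18, below the 0.33 of the 10 genes. These lists, too, were chosen with earlier results of these data known.

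Translocation genes had the highest median of the 7 lists. Of 20 genes for entry into the ER and removal of signal peptides, 4 (20%) were called higher, 0 lower, and 19 (95%) were above 0. Their median log2 ratio was 0.24. Of all measured genes, 4.55% were called higher, 4.48% were called lower and 53% were above 0. SEC11C, a catalytic subunit of signal peptidase, had 24.8 FPKM in the NEIL3 KD library and 12.6 FPKM in the shGFP library, a ratio of 1.97. The translocon subunits SEC61B and SEC61G followed. SEC61B had 50.1 FPKM in the NEIL3 KD library and 31.9 FPKM in the shGFP library, and SEC61G 104 FPKM in the NEIL3 KD library and 67.3 FPKM in the shGFP library. SRPRB, a subunit of the receptor of the signal recognition particle, had 41.9 FPKM in the NEIL3 KD library and 27.1 FPKM in the shGFP library.

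Export genes had a median log2 ratio of 0.20 over 19 measured. Of these, 16 (84.2%) were above 0 and 1 (5.26%) was called higher, against 53% and 4.55% of all measured genes. SEC24D, a cargo adaptor of the COPII coat, was the 1 gene called higher, at 16.7 FPKM in the NEIL3 KD library and 9.77 FPKM in the shGFP library. PREB, which loads the COPII GTPase, had 72.7 FPKM in the NEIL3 KD library and 52.9 FPKM in the shGFP library. The oligosaccharyltransferase list, with a median of 0.14 over 11 genes, had 0 calls in either direction. Its largest ratios were OSTC, at 77.4 FPKM in the NEIL3 KD library and 60.4 FPKM in the shGFP library, and OST4, at 104 FPKM in the NEIL3 KD library and 81.7 FPKM in the shGFP library.

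The folding and degradation lists were less even. Their counts are to be read against all measured genes, of which 53% were above 0 and 4.55% were called higher. All 9 measured HSP70 partners were above 0, with a median log2 ratio of 0.15 and 0 calls. Among them SIL1, a nucleotide exchange factor of HSPA5, had 15.2 FPKM in the NEIL3 KD library and 10.1 FPKM in the shGFP library. DNAJC10 (ERdj5), a J protein with reductase activity, had 64.8 FPKM in the NEIL3 KD library and 44.6 FPKM in the shGFP library. Of 20 ERAD genes measured 15 (75%) were above 0, with a median of 0.08 and 1 (5%) called higher. That was DERL2, a derlin of the ER membrane, at 23.7 FPKM in the NEIL3 KD library and 15.3 FPKM in the shGFP library. EDEM1, which marks misfolded glycoproteins by mannose trimming, had 11.6 FPKM in the NEIL3 KD library and 8.15 FPKM in the shGFP library.

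Disulfide isomerases and oxidases had a median of 0.06 over 18 genes. Of these, 13 (72.2%) were above 0 and 1 (5.56%) was called higher, against 53% and 4.55% of all measured genes. TMX4, a transmembrane thioredoxin, was the 1 gene called higher, at 21.8 FPKM in the NEIL3 KD library and 7.89 FPKM in the shGFP library. GPX8, a peroxidase of the ER membrane, had 1.14 FPKM in the NEIL3 KD library and 2.04 FPKM in the shGFP library. Lectin chaperones had a median of -0.0044 over 7 genes, 3 above 0 and 4 below. UGGT1, which senses folding of glycoproteins, was the 1 called higher, at 60.7 FPKM in the NEIL3 KD library and 38.4 FPKM in the shGFP library. The chaperone CALR (calreticulin) had 289 FPKM in the NEIL3 KD library and 209 FPKM in the shGFP library.

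**Figure D4:**
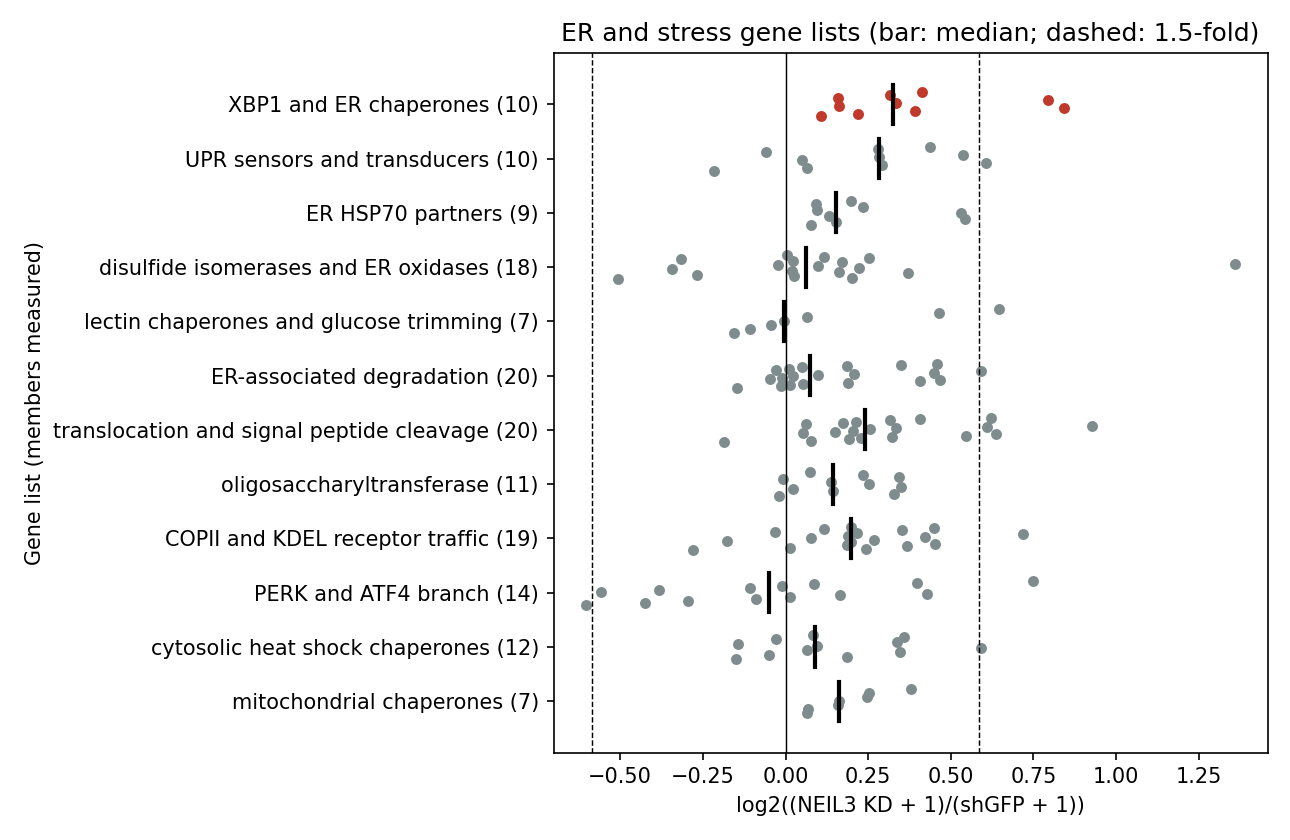
Log2 ratio of NEIL3 KD to shGFP (pseudocount 1 FPKM) of each measured gene in 12 lists, with the number measured in brackets; bars are list medians and dashed lines 1.5-fold. Of these 12 lists, the 10 genes (red) have the highest median, at 0.33, and the PERK and ATF4 list the lowest, at -0.05. The top place rests on XBP1 and DNAJB9. Without them the median of the other 8 was 0.27, below the 0.28 of the sensors and transducers. The hepatocyte markers, not plotted, had a median of 0.34.

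The PERK branch, which acts through ATF4 on amino acid supply and cell death genes, was split in direction. Of its 14 genes, 6 were above 0 and 8 below, with a median log2 ratio of -0.05, 1 called higher and 1 called lower. Over all measured genes, 53% were above 0, with 4.55% called higher and 4.48% called lower. ATF5, a transcription factor of the stress response, had 4.85 FPKM in the NEIL3 KD library and 2.48 FPKM in the shGFP library. DDIT4, an inhibitor of mTORC1 signalling, had 18.5 FPKM in the NEIL3 KD library and 28.7 FPKM in the shGFP library. Of 6 mRNAs known as substrates of IRE1 decay, 1 was called higher, 0 lower, and 4 were above 0. The one called was the growth factor receptor PDGFRB, at 9.19 FPKM in the NEIL3 KD library and 3.32 FPKM in the shGFP library. SCARA3, a scavenger receptor, had 4.48 FPKM in the NEIL3 KD library and 3.36 FPKM in the shGFP library.

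Chaperones outside the ER were set beside these. Of 12 cytosolic heat shock genes measured, 8 (66.7%) were above 0 and 1 (8.33%) was called higher, with a median log2 ratio of 0.09. Over all measured genes, 4.55% were called higher. Of nuclear genes, 61.7% of those with mean FPKM of 50 to 200 and 43.5% of those with 200 or more were above 0. The cytosolic gene called was HSPA8, the constitutive cytosolic HSP70, at 966 FPKM in the NEIL3 KD library and 641 FPKM in the shGFP library. DNAJB1, its J protein partner, had 85.1 FPKM in the NEIL3 KD library and 66.2 FPKM in the shGFP library. All 7 measured mitochondrial chaperone genes were above 0, with a median of 0.16 and 0 calls. HSPE1, the mitochondrial co-chaperonin, had 544 FPKM in the NEIL3 KD library and 418 FPKM in the shGFP library. GRPEL1, an exchange factor of the mitochondrial HSP70, had 21.6 FPKM in the NEIL3 KD library and 17.9 FPKM in the shGFP library.

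Among 1591 other protein-coding genes with mean FPKM of 50 or more, the 5 with the log2 ratio nearest to that of XBP1 were APOH, SELENOP, KIF5B, ATP5J2 and CORO1C, all within 0.0403 of it. Likeness here rests on 1 ratio between 2 libraries. APOH, a plasma apolipoprotein, had 438 FPKM in the NEIL3 KD library and 247 FPKM in the shGFP library. SELENOP, the plasma selenium carrier, had 328 FPKM in the NEIL3 KD library and 180 FPKM in the shGFP library. KIF5B, a kinesin heavy chain, had 67.5 FPKM in the NEIL3 KD library and 37.8 FPKM in the shGFP library. ATP5J2, a subunit of ATP synthase, had 237 FPKM in the NEIL3 KD library and 129 FPKM in the shGFP library, and CORO1C, an actin-binding coronin, 67.3 FPKM in the NEIL3 KD library and 38.2 FPKM in the shGFP library.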

How the data were processed

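Processing by the authors is known from the submitters' processing notes, which name Trimmomatic 0.36, bcl2fastq, Cufflinks 2.2.1, Cuffdiff, HISAT2 2.1.0, SAMtools 1.2 and the build GRCh38.p10. The annotation release, filters and strand setting are not stated in the sources used here. RNA was taken up in Trizol and the kit was strand-specific, per the labels' protocols. The authors deposited FPKM for 58220 genes in each library, with undetected genes at 1e-05. The deposited ratio and log2 ratio are NEIL3 KD over shGFP with no pseudocount. The deposited p-value and q-value compare the 2 libraries. With FPKM and 1 library per group, no test was run here.

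Where a symbol had several rows, the one with the highest mean was used. Log2 ratios had a pseudocount of 1 FPKM, and measured genes needed 1 FPKM in at least 1 library. The 10 genes, the 16 other lists and the motifs were chosen with earlier results of these data known. Of each other list the text may name up to 4 genes that were called and had mean FPKM of 1 or more, or, where fewer than 2 were, the 2 with the largest log2 ratio in size. Names outside this rule are said to be later choices, apart from PTPRC and the overlapping genes, which were named for what they are. The positions printed for the 10 genes are those of the deposited table and equal those of GENCODE 29. The software was Python 3.11.15, pandas 2.3.3 and matplotlib 3.10.9.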

Additional observations from a re-analysis of the deposited data

How the results depend on the processing

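All 10 genes kept a log2 ratio above 0 with a pseudocount of 0.1 or 5 FPKM, with plain ratios, with FPKM rescaled outside the mitochondrial genome, with centring on the median gene and with the rows of a symbol summed. Only the rescaling and the centring could have changed a sign. A pseudocount does not alter which library is higher, and each of the 10 stood on 1 row. XBP1 ran from 0.82 to 0.85 under these, and the median of the 10 from 0.27 to 0.34. The same 2 genes, XBP1 and DNAJB9, were called under each. The DNAJB9 log2 ratio was 0.66 with a pseudocount of 5 FPKM and 0.79 with 1 FPKM. Counts over all genes moved more. In the report 647 genes were called higher and 637 lower. With a pseudocount of 5 FPKM these counts were 247 and 177, with plain ratios 971 and 1021, and with mean FPKM of 10 or more 245 and 151. A pseudocount of 0.1 FPKM gave 1026 called lower. A larger pseudocount shrinks the ratios of low genes by construction, and the higher minimum tests fewer genes. No paired analysis was possible because each group has 1 library. HYOU1, SURF4, ATF6B and HSPA1A, named after their values were seen, stood under 0.3 FPKM in both libraries and entered no count, and the table does not show whether such a value is a failed estimate.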

Other observations

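ERSE or ERSE-II also stood in the promoter windows of 22 measured genes outside the 10. The median log2 ratio of these 22 was -0.05, 9 of the 22 (40.9%) were above 0, and 0 were called in either direction. For the 12 with ERSE alone or beside ERSE-II, the median was 0.08 and 7 (58.3%) were above 0. Among 9477 measured genes whose windows held neither element, the median was 0.03 and 54.2% were above 0, with 3.93% called higher and 3.60% called lower. No test was run, as there is 1 library per group.

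The highest and lowest of the 22, and ALG12, were named after their values were seen. CALR, the chaperone described above, had 289 FPKM in the NEIL3 KD library and 209 FPKM in the shGFP library. FICD, an ER enzyme that modifies HSPA5, had 1.70 FPKM in the NEIL3 KD library and 0.987 FPKM in the shGFP library. FICD reached the minimum of 1 FPKM only in the NEIL3 KD library, where it was higher, so its place among the genes above 0 depends on that filter. At the other end, the transcription factor CAMTA1 had 17.8 FPKM in the NEIL3 KD library and 24.6 FPKM in the shGFP library, and ZNF143 8.15 FPKM in the NEIL3 KD library and 10.7 FPKM in the shGFP library. ALG12, a mannosyltransferase that overlaps CRELD2 on the other strand, is also among these genes with ERSE or ERSE-II. Its level of 17.8 FPKM in the NEIL3 KD library was below the 19.6 FPKM in the shGFP library.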
